A study of Homo sapiens with 3 samples.

Results

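Mitochondrial ribosomal protein genes were taken as the protein-coding genes of GENCODE 44, mapped to the human genome build hg19, whose symbol is MRPL or MRPS followed by a number and at most 1 letter. This rule gave 78 genes of 20163. Of these, 49 carry an MRPL symbol and 29 an MRPS symbol. By their place in the assembled particle, 51 encode proteins of the large subunit, including MRPS18A and MRPS30, and 26 encode proteins of the small subunit. MRPS36 was counted as a member by its symbol, although its product is known as a component of the 2-oxoglutarate dehydrogenase complex rather than of the ribosome. The genes lie on 21 chromosomes, with none on chromosomes 18, X and Y.

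The data are chromatin immunoprecipitation sequencing (ChIP-seq) peak lists from H2087 cells, which are an established line of human lung adenocarcinoma and were grown without any treatment. One library was immunoprecipitated for trimethylation of lysine 4 on histone H3 (H3K4me3), and the other for acetylation of lysine 27 on the same histone (H3K27ac). The labels also describe an input library without antibody, which was not analysed here. Each mark had 1 library (n = 1) of 1 cell line, so no value has a replicate, no test between groups of samples was possible, and the 95% intervals below cover counting error over genes or peaks only, with neighbouring genes treated as independent.

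Mitochondria carry their own ribosome, which translates the few proteins encoded by mitochondrial DNA, all of them core subunits of the respiratory chain and ATP synthase. Its RNAs come from mitochondrial DNA, whereas its proteins are encoded in the nucleus, made in the cytosol and imported. Some are counterparts of bacterial ribosomal proteins, and the rest were added during the evolution of mitochondria. H3K4me3 marks the starts of genes with active or poised promoters, and H3K27ac marks active promoters and enhancers. Starts with an interval of the deposited peak list within 1 kb of the outer 5′ end of the gene were called marked. Peak strength is given as the −log10 q in the last column of each list, which has no header and was read as such from its values. It can be ranked within a list but not compared between the marks, since the sequencing depth of each library is unknown here.

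To show the promoters on which the results turn, 9 windows of 300 bases were read from the GRCh37 assembly, which is the build hg19, from 250 bases before to 50 bases from the gene start, 5′ to 3′ on the strand of the gene. Capitals mark matches, on either strand, to the letters searched, which were GCGCANGCG for NRF1, CCGGAAG for the ETS family, AANATGGCG for YY1, CCAAT for NF-Y and GGGCGG for the GC box of SP factors. A match describes letters and is not a binding site. MRPS5, MRPL55 and MRPL47 had the highest −log10 q for H3K4me3, and MRPS5, MRPS7 and MRPL49 for H3K27ac. MRPL24, MRPL44 and MRPS25 had neither mark. MRPL46 is shown for the start region that it shares with MRPS11, a choice made after the values were seen.
MRPS5: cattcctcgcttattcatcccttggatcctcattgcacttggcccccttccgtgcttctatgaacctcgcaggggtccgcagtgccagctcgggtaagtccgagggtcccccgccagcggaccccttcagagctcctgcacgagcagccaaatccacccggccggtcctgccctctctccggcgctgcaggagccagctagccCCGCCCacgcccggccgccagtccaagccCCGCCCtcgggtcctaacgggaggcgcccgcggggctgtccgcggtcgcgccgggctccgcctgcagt
MRPL55: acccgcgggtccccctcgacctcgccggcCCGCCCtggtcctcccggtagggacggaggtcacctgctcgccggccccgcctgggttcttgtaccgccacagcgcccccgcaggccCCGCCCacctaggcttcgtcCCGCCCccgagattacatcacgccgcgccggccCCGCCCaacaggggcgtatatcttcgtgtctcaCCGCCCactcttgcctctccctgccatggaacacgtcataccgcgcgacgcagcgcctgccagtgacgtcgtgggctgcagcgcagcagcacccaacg
MRPL47: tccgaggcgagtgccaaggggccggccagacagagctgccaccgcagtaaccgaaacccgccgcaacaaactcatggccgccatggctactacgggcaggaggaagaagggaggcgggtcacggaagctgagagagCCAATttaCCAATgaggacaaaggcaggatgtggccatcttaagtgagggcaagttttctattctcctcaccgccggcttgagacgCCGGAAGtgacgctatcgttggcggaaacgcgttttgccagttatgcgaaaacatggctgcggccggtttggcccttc
MRPS7: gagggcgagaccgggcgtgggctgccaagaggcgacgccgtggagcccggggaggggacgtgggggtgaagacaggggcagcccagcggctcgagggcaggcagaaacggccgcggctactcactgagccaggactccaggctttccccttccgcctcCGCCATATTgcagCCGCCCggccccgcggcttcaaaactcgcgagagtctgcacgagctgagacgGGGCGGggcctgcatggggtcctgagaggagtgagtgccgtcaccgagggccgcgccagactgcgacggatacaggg
MRPL49: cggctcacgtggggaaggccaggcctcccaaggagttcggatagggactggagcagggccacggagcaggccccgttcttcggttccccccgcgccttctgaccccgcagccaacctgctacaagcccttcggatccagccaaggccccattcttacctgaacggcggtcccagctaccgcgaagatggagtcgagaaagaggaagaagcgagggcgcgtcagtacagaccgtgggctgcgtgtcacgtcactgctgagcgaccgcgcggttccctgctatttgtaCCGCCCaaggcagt
MRPL24: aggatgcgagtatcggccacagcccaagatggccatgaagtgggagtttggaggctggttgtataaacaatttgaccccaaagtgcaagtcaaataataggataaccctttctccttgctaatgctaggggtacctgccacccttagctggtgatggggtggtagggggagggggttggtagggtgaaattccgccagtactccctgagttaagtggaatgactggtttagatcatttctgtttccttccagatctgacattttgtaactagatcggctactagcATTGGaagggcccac
MRPL44: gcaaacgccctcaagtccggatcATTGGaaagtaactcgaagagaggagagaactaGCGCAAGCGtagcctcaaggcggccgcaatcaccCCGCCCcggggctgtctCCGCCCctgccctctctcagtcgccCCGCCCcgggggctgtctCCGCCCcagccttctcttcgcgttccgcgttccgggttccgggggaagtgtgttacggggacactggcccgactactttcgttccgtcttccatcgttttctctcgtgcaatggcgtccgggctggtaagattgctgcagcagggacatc
MRPS25: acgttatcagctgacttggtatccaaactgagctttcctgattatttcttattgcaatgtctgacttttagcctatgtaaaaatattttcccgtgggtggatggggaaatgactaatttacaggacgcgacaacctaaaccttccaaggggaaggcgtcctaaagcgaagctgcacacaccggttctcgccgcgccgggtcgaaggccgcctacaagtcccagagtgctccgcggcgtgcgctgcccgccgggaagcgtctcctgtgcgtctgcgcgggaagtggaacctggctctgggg
MRPL46: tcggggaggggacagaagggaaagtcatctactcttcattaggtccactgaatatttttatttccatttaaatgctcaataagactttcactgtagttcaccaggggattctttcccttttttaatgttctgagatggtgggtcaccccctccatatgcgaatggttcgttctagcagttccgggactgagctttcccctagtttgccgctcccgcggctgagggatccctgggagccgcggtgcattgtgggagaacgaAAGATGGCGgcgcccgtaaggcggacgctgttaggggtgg

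The windows on the strand of each gene cover chr2:95787702-95788001 (MRPS5, minus strand), chr1:228296964-228297263 (MRPL55, minus strand), chr3:179322388-179322687 (MRPL47, minus strand), chr17:73257505-73257804 (MRPS7, plus strand), chr11:64889405-64889704 (MRPL49, plus strand), chr1:156711333-156711632 (MRPL24, minus strand), chr2:224821930-224822229 (MRPL44, plus strand), chr3:15106797-15107096 (MRPS25, minus strand) and chr15:89010572-89010871 (MRPL46, minus strand). The windows of MRPS5 and MRPL55 held matches to the GC box alone, 2 and 5 of them. MRPL47 had an ETS match with its first base at −28, counted with the start base as 0, and 2 CCAAT matches upstream of it. MRPS7 had a YY1 match starting at −92, read on the opposite strand, and in the window of MRPL46 the YY1 letters began 10 bases after the start. Of the unmarked genes, MRPL44 held an NRF1 match at −194, 4 GC boxes and a CCAAT match, MRPL24 held a CCAAT match alone and MRPS25 held none of the 5 motifs. The annotated start of MRPL24 lies 502 bp upstream of the start of its canonical transcript, so its window is not that of the canonical promoter. The same offset was 205 bp at MRPS7, 198 bp at MRPS5 and 138 bp at MRPL49. The window at the canonical start of MRPS7 held no YY1 match.

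Of the 78 genes, 47 had an H3K4me3 peak within 1 kb of the gene start, or 60.3% (95% interval 48.5 to 71.2), beside 38.2% of all protein-coding genes. H3K27ac was found at 29 genes, or 37.2% (26.5 to 48.9), beside 23.6% of all genes. Both marks were present at 24 genes (30.8%, beside 18.6%), H3K4me3 alone at 23 (29.5%, beside 19.6%), H3K27ac alone at 5 (6.41%, beside 4.99%) and neither mark at 26 (33.3%, beside 56.8%). The difference in percentage points to all genes was therefore 22.0 for H3K4me3 and 13.6 for H3K27ac. With peaks of −log10 q of at least 5 alone, it was 9.82 for H3K4me3 and turned to −2.25 for H3K27ac, where MRPS5 was the only member left.

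For comparison, 2 other gene lists were counted. Genes for cytosolic ribosomal proteins, which form the ribosome that reads nuclear messages, had H3K4me3 at 67.1% of 79 starts (55.6 to 77.3) and H3K27ac at 51.9% (40.4 to 63.3). Genes for subunits of oxidative phosphorylation, the complexes that hold the products of the mitochondrial ribosome, had H3K4me3 at 63.6% of 77 starts (51.9 to 74.3) and H3K27ac at 40.3% (29.2 to 52.1). The intervals of these 3 lists overlap for both marks. Among starts that carried H3K4me3, H3K27ac was also present at 51.1% of the mitochondrial ribosomal genes (36.1 to 65.9), 48.6% of all genes and 71.7% of the cytosolic ribosomal genes (57.7 to 83.2). For the oxidative phosphorylation genes this share was 53.1% (38.3 to 67.5). Among the 31 starts of the mitochondrial ribosomal genes without H3K4me3, 5 carried H3K27ac, or 16.1% (5.45 to 33.7), beside 8.08% of all such starts. It was 17.9% (6.06 to 36.9) at such starts of the oxidative phosphorylation genes and 11.5% (2.45 to 30.2) at those of the cytosolic ribosomal genes.

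**Figure D1:**
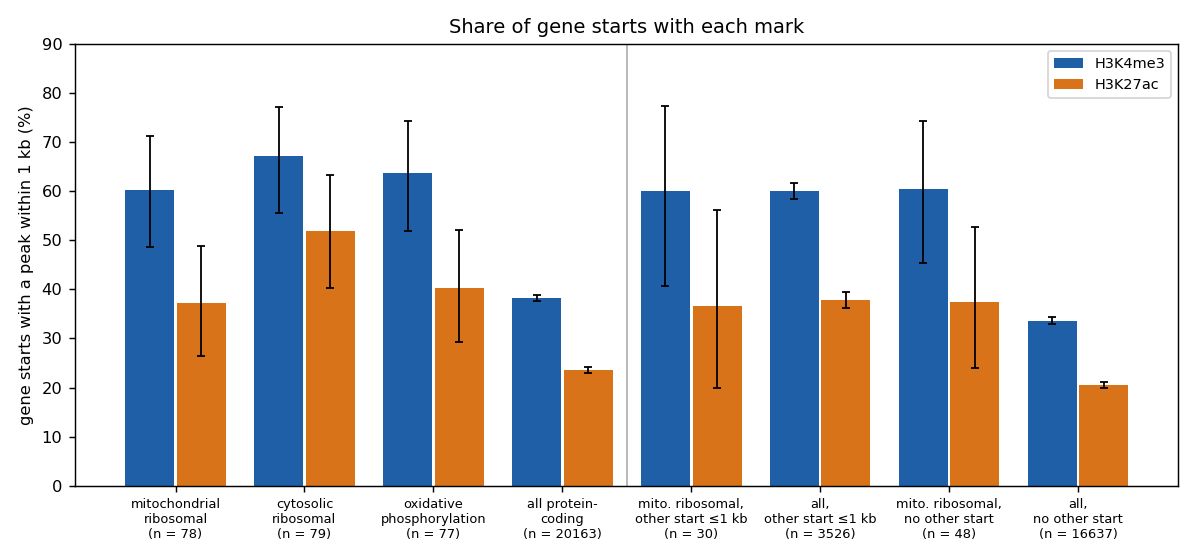
Share of gene starts with an H3K4me3 (blue) or H3K27ac (orange) peak within 1 kb, in percent, with 95% Clopper-Pearson intervals as bars and 1 library per mark. On the left, the mitochondrial ribosomal genes stand at 60.3% and 37.2%, near the 2 other gene lists and above all protein-coding genes, and on the right the lists are divided by whether another protein-coding start lies within 1 kb.

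Many of these genes lie next to another gene start. Another protein-coding start lay within 1 kb of 30 of the 78 starts (38.5%), beside 17.5% of all genes, and for 27 of the 30 such a partner was on the opposite strand. With another start nearby, H3K4me3 was present at 60% of the mitochondrial ribosomal genes and 60.1% of all genes, and H3K27ac at 36.7% and 37.8%. Without one, H3K4me3 was present at 29 of 48 mitochondrial ribosomal genes, or 60.4% (45.3 to 74.2), beside 33.6% of all genes, and H3K27ac at 37.5% (24.0 to 52.6), beside 20.6%. Where 2 starts lie this close, a peak cannot be assigned to one of the genes.

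Some of the partners, picked after the values were seen, are as follows. MRPL47 and MRPL36 each start 41 bp from a gene for a complex I subunit, NDUFB5 and NDUFS6, on the opposite strand. MRPL43 starts 148 bp from TWNK, the helicase of mitochondrial DNA, MRPS12 starts 181 bp from SARS2, the mitochondrial seryl-tRNA synthetase, and MRPL49 starts 6 bp from FAU, which encodes a cytosolic ribosomal protein. MRPL46 on the minus strand and MRPS11 on the plus strand start 63 bp apart at chromosome 15 and are the only pair of members within 1 kb of each other. They shared the same 2 H3K4me3 peaks, chr15:89009811-89010008 (−log10 q 3.76) and chr15:89011386-89011660 (4.60), and the same H3K27ac peak, chr15:89010986-89011346 (3.55), which lies between the starts and the stronger H3K4me3 peak. These 2 genes are therefore not independent in the counts.

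Median peak strength at the marked starts was close to that of all marked genes, while the upper values for H3K27ac were lower. The highest −log10 q per start had a median of 3.93 for H3K4me3 at the 47 genes (interquartile range 2.95 to 5.48, range 1.46 to 11.2), beside 3.76 at all 7705 marked starts. The interquartile range at all these starts was 2.78 to 5.36. For H3K27ac the median at the 29 genes was 3.27 (interquartile range 2.48 to 3.71, range 1.55 to 6.97), beside 3.05 at 4753 starts. Those 4753 starts had an interquartile range of 2.16 to 4.28 and a highest value of 29.0, so strong H3K27ac peaks were scarcer among the members. The length under peaks within 1 kb of the start had a median of 454 bp for H3K4me3 and 341 bp for H3K27ac, beside 434 and 325 bp. H3K4me3 formed 2 separate peaks at 18 of the 47 starts (38.3%, beside 25.1% of all marked starts) and never 3 or more (beside 2.97%). H3K27ac formed 2 peaks at 2 of the 29 starts, MRPS5 and MRPL20 (6.90%, beside 18.9% of all marked starts).

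**Figure D2:**
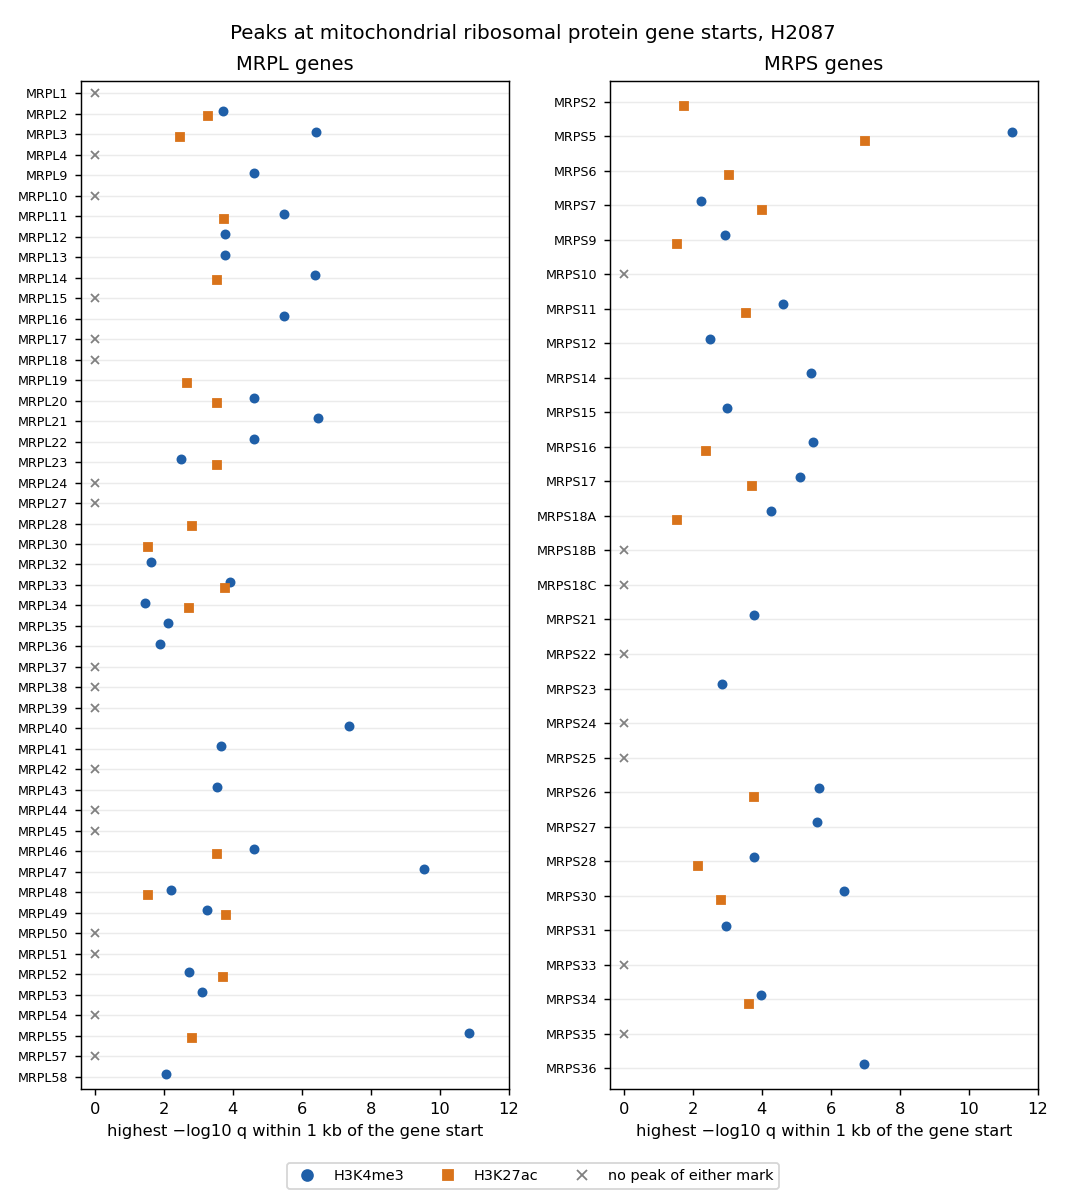
Highest −log10 q of an H3K4me3 peak (blue circle) or H3K27ac peak (orange square) within 1 kb of the start of each of the 78 genes, with a grey cross at 0 for the 26 genes with neither mark. MRPS5 leads for both marks, at 11.2 and 6.97, and the values are to be compared within a mark only.

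MRPS5, a small-subunit protein with a bacterial counterpart near the messenger RNA entry site, had the strongest peak of both marks among these genes. Its H3K4me3 peaks were chr2:95786340-95786994 (−log10 q 11.2, above 99.1% of the list), in an intron 757 bp into the gene, and chr2:95787333-95787729 (4.20) over the first exon. Its stronger H3K27ac peak, chr2:95787193-95787700 (6.97, above 98.0% of the list), also lay over the first exon, and a weaker one (2.62) lay within the stronger H3K4me3 peak. The 2 marks thus ranked the 2 positions in opposite order.

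MRPL55, a large-subunit protein, reached 10.8 for H3K4me3 in chr1:228297183-228297722, which lies upstream of the gene and overlaps its promoter window, while its H3K27ac peak reached 2.82 over 189 bp. MRPL47, at the exit of the protein tunnel, reached 9.53 in chr3:179323182-179323706. That peak begins 745 bp upstream, on the side of NDUFB5, and no H3K27ac peak lay within 1 kb. MRPL40 (7.36, in an intron) and MRPS36 (6.96, over the first exon) followed, and neither carried H3K27ac. Of the 5 starts with the strongest H3K4me3, 3 had no H3K27ac peak. The same held for 23 of all 47 members with H3K4me3, and for 3959 of the 7705 such starts over all genes.

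For H3K27ac, MRPS5 was followed by MRPS7 (4.0), MRPL49 (3.80), MRPL33 (3.77) and MRPS26 (3.77), and all 5 also carried H3K4me3. So did 24 of all 29 members with H3K27ac, and 3746 of the 4753 such starts over all genes. MRPS7, a protein of the small-subunit head, had the H3K27ac peak chr17:73257253-73257622 upstream of the start, reaching into the printed window, and weak H3K4me3 peaks on both sides of the start (1.41 and 2.23). At MRPL49 both marks lay upstream, on the side of FAU, and overlapped by 173 bp. At MRPL33 the marks lay apart, with H3K4me3 from 108 bp after the start and H3K27ac ending 332 bp before it. At MRPS26 the H3K27ac peak lay within an H3K4me3 peak of 1221 bp, which covered exons 1, 2 and 3.

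Width and strength picked different genes. The longest length under H3K4me3 peaks was at MRPL20 (1450 bp), followed by MRPL14 (1375 bp), MRPL13 (1368 bp), MRPL55 (1163 bp) and MRPL21 (1068 bp), all proteins of the large subunit. Large-subunit genes made up 30 of the 47 members with H3K4me3. Their median length under peaks was 451.5 bp, beside 476.5 bp at the small-subunit genes. Of the 5 longest, only MRPL55 was also among the 5 strongest. MRPL13 and MRPL21 start 2 bp from MTBP and 28 bp from IGHMBP2, and both had 1 H3K4me3 peak over the shared start with no H3K27ac within 1 kb. For H3K27ac the longest were MRPL20 (953 bp), MRPL28 (770 bp), MRPS5 (739 bp), MRPL34 (630 bp) and MRPL14 (610 bp). The marked length of MRPL34 depends on its annotated start, which lies 13.3 kb from the canonical start, where neither mark was found.

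The 5 genes with H3K27ac alone were MRPL19 (−log10 q 2.67), MRPL28 (2.82), MRPL30 (1.55), MRPS2 (1.74) and MRPS6 (3.05). All 5 encode proteins with a bacterial counterpart, as do 46 of the 78 members. Several of the 5 were close to the limits used. The peak of MRPL30 began 961 bp from the start and that of MRPS2 began 803 bp from it. H3K4me3 peaks lay just outside the window at MRPS6 (1116 bp, 1.55) and MRPS2 (1375 bp, 4.60), and both genes carried both marks at their canonical starts. At canonical starts MRPL37 and MRPS22, whose products have no bacterial counterpart, had H3K27ac alone, so the class depends on the start used. MRPL28 had an H3K27ac peak across its start, chr16:421039-421808, 134 bp upstream on centre.

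The genes can also be read by the place of their products in the ribosome, here for examples picked after the values were seen. Of 3 proteins of the stalk that recruits translation factors and of its base, MRPL11 had both marks (5.48 for H3K4me3 and 3.74 for H3K27ac), MRPL12 had H3K4me3 alone (3.78) and MRPL10 had neither. The outer start of MRPL11 is 411 bp from that of PELI3 on the opposite strand. Its 5.48 peak lies upstream of the gene, so these peaks cannot be assigned to MRPL11. At the canonical start of MRPL11, 27.9 kb away, the values were 3.89 and 1.66. Near the peptidyl transferase centre, where peptide bonds are made, MRPL2 (3.72 and 3.27) and MRPL3 (6.40 and 2.48) had both marks, MRPL16 had H3K4me3 alone (5.47), and MRPL4 and MRPL27 had neither. Around the exit of the protein tunnel, MRPL23 had both marks (2.49 and 3.55), MRPL22 (4.60) and MRPL47 had H3K4me3 alone, and MRPL24 and MRPL45, which contacts the inner membrane, had neither. In the central protuberance, MRPL46 and MRPL48 (2.21 and 1.55) had both, MRPL40 had H3K4me3 alone and MRPL38 had neither.

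In the small subunit, MRPS12, the protein of the decoding site, had H3K4me3 alone (2.49), while MRPS7 and MRPS11, at the messenger RNA exit, had both. The 3 paralogs of the bacterial protein S18 differed, with both marks at MRPS18A (4.27 and 1.55) and neither at MRPS18B and MRPS18C. MRPL58, a peptidyl-tRNA hydrolase built into the large subunit, had a weak H3K4me3 peak (2.08), with an H3K27ac peak 1006 bp from the start, just outside the window.

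The remaining marked genes ranged from weak to strong. Among those with both marks, MRPS30 reached 6.39 for H3K4me3 and 2.82 for H3K27ac, with the H3K27ac peak lying wholly under H3K4me3 (198 bp shared). MRPS17 reached 5.10 and 3.71, in peaks that lay within the gene and shared 497 bp. MRPS16 reached 5.47 upstream of its start for H3K4me3 and 2.39 downstream of it for H3K27ac, without overlap. MRPS34 (3.98 and 3.64), MRPL52 (2.73 and 3.71), MRPS28 (3.76 and 2.16) and MRPS9 (2.93 and 1.55) were the others. Among those with H3K4me3 alone, MRPS27 (5.59) and MRPS14 (5.41) were the strongest not yet named, followed by MRPL9 (4.60), MRPS21 (3.76), MRPL41 (3.66), MRPL43 (3.54) and MRPL53 (3.11). MRPS15 (2.98), MRPS31 (2.97), MRPS23 (2.86) and MRPL35 (2.12) were weaker.

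By subunit, H3K4me3 was present at 30 of 51 large-subunit genes, or 58.8% (44.2 to 72.4), and at 16 of 26 small-subunit genes, or 61.5% (40.6 to 79.8). H3K27ac was present at 35.3% and 42.3%. The subunits thus differed by less than the width of their intervals. Of the 46 genes whose product has a bacterial counterpart, 30 had H3K4me3 (65.2%, 49.8 to 78.6) and 21 had H3K27ac (45.7%, 30.9 to 61.0). Of the 29 without one, 15 had H3K4me3 (51.7%, 32.5 to 70.6), 7 had H3K27ac (24.1%, 10.3 to 43.5) and 14 had neither (48.3%, 29.4 to 67.5), against 11 with neither (23.9%, 12.6 to 38.8) among those with a counterpart. The intervals of these 2 classes overlap for each count.

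At the marked members, most peaks lay beside the start rather than over it. Peaks over the start, distances of centres and sides were counted for the members only. Those counts therefore have no share over all genes beside them and show no trait particular to the members. Of the 65 H3K4me3 peaks within 1 kb of the 47 starts, 43 had their centre downstream (66.2%, 53.4 to 77.4), beside 70.3% over all genes, and of the 31 H3K27ac peaks 19 did (61.3%, 42.2 to 78.1), beside 65.8%. Only 2 of the H3K4me3 centres fell within 200 bp of the start, 1 on each side, against 13 between 200 and 400 bp and 13 between 600 and 800 bp downstream. An H3K4me3 peak covered the start itself at 3 genes, MRPL13, MRPL21 and MRPL34, and an H3K27ac peak did so at MRPL28. Counted by their centres, H3K4me3 peaks lay on both sides of 14 starts, downstream alone at 26 and upstream alone at 7, where the 3 genes with a peak over the start count on the side of its centre. Centres lay on both sides at 8 of 18 starts with another start within 1 kb and at 6 of 29 without one.

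**Figure D3:**
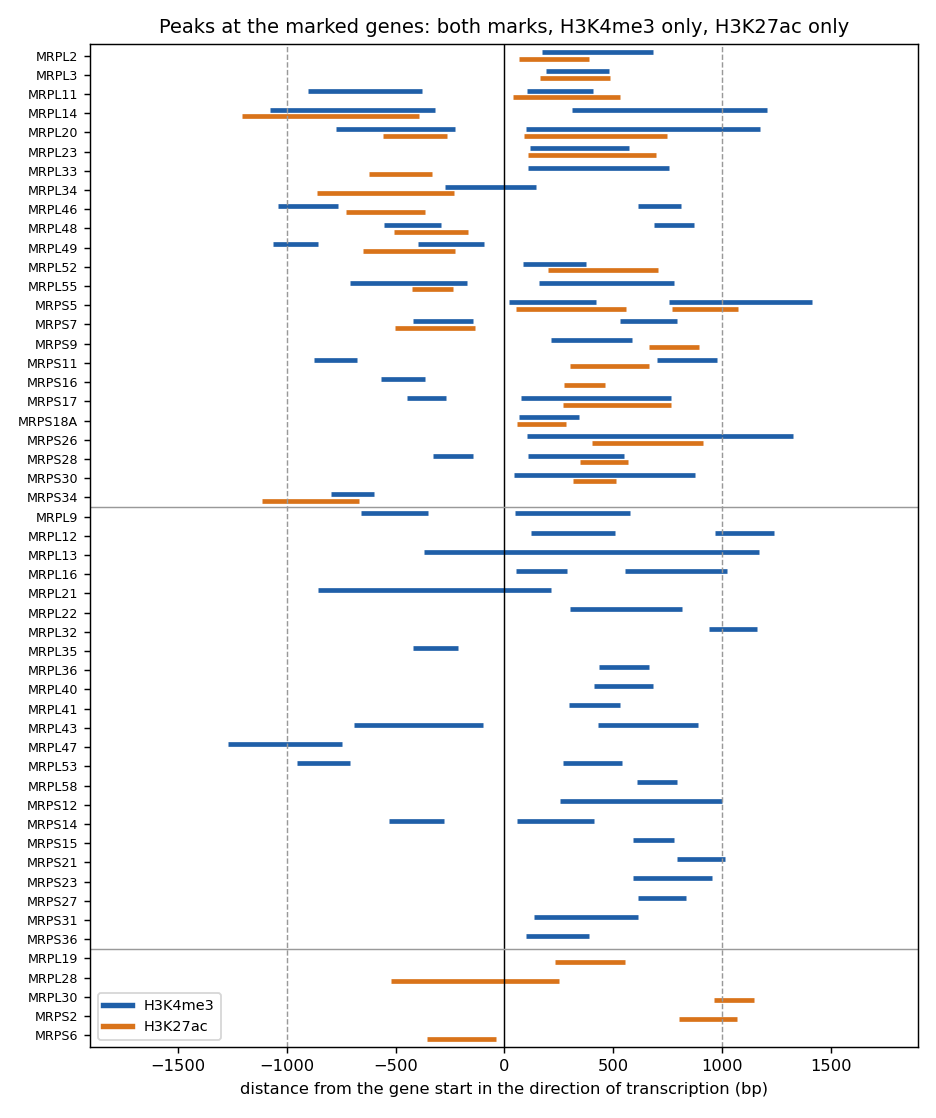
Position of every H3K4me3 (blue) and H3K27ac (orange) peak within 1 kb (dashed lines) of the start (black line) of the 52 marked genes, in bp along the direction of transcription. From top to bottom the blocks hold the 24 genes with both marks, the 23 with H3K4me3 alone and the 5 with H3K27ac alone, and few of the peaks cross the start.

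Where both marks were present, their peaks overlapped by at least 1 bp at 19 of 24 starts (79.2%, 57.8 to 92.9), beside 83.6% over all genes with both marks. With 50% of each peak required to be shared, 10 starts remained. The 5 genes with separate peaks were MRPL33, MRPL46, MRPS9, MRPS11 and MRPS16. The longest shared lengths were 941 bp at MRPL20, 684 bp at MRPL14 and 670 bp at MRPS5.

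The 26 genes with neither mark were MRPL1, MRPL4, MRPL10, MRPL15, MRPL17, MRPL18, MRPL24, MRPL27, MRPL37, MRPL38, MRPL39, MRPL42, MRPL44, MRPL45, MRPL50, MRPL51, MRPL54 and MRPL57 of the large subunit and MRPS10, MRPS18B, MRPS18C, MRPS22, MRPS24, MRPS25, MRPS33 and MRPS35 of the small subunit. The nearest peak of either mark was 1.02 to 924.1 kb away, with a median of 17.4 kb. For 6 genes it lay within 3 kb, for 4 between 3 and 10 kb, and for 16 beyond 10 kb. A start without a peak cannot be told from one with too few reads.

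Just outside the window, an H3K27ac peak lay 1020 bp from the start of MRPL15, 1030 bp from MRPL57, 1092 bp from MRPS18B and 1159 bp from MRPS35. At MRPL54 an H3K4me3 peak lay at 1058 bp and an H3K27ac peak at 1049 bp. Just inside, MRPL32 was counted as marked by an H3K4me3 peak that began 937 bp from the start (−log10 q 1.64) and covered 64 bp of the window. At the far end, MRPL50 lay 924.1 kb from the nearest H3K4me3 peak and 1115 kb from the nearest H3K27ac peak. MRPS25 lay 793.8 and 244.7 kb away, MRPS33 318.2 and 251.9 kb, and MRPL1 42.6 and 705.3 kb.

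Unmarked members tended to lie where other genes were also less often marked. Among the other protein-coding starts within 5 Mb, the share with H3K4me3 had a median of 47.9% around the genes with both marks (range 27.7 to 63.7), 49.6% around those with H3K4me3 alone (22.5 to 71.7), 44.2% around those with H3K27ac alone (25.2 to 57.9) and 32.9% around those with neither (15.2 to 62.2). For H3K27ac the medians were 30.8%, 31.4%, 31.8% and 17.5%. Of the 26 unmarked genes, 20 were under the median of all 78 genes, which was 43.6% for H3K4me3. MRPL51 (15.2%), MRPS33 (15.6%), MRPL18 (17.1%), MRPL39 (20%) and MRPS25 (20%) had the lowest shares, and MRPL42 (62.2%), MRPL38 (54.7%) and MRPS22 (51.7%) the highest. The ranges overlap, neighbouring genes share part of their surroundings, and the part of these regional shares in the absence of a peak was not tested.

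**Figure D4:**
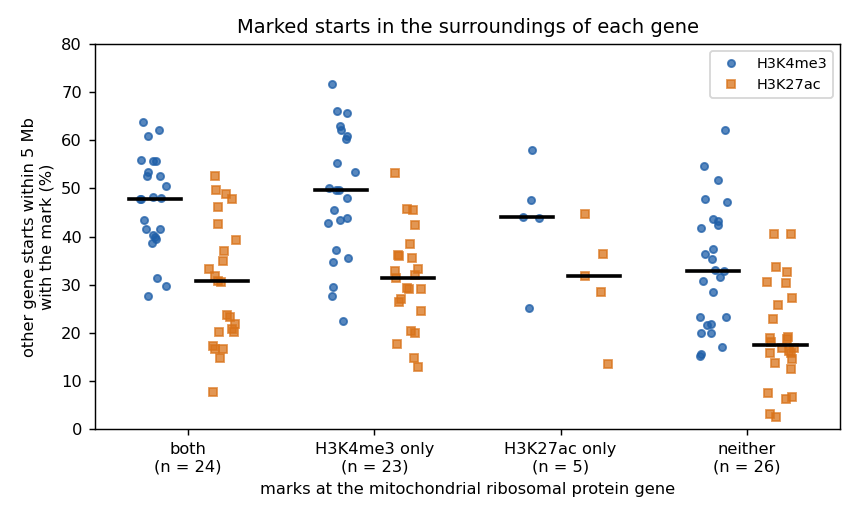
Share of the other protein-coding starts within 5 Mb that carried H3K4me3 (blue circles) or H3K27ac (orange squares), in percent, for each of the 78 genes grouped by its own marks, with black lines at the medians and points spread sideways for legibility. The medians around the genes with neither mark are 32.9% and 17.5%, and the ranges of the groups overlap.

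By chromosome, all 5 members on chromosome 5 had H3K4me3 (all genes there 52.1%), as did 6 of 7 on chromosome 11 (41.5%) and 6 of 8 on chromosome 1 (42.4%). None of the 3 on chromosome 12, MRPL42, MRPL51 and MRPS35, had either mark, where 44% of all genes carried H3K4me3 and 30.1% H3K27ac. On chromosome 17, 4 of 8 had H3K4me3 (all genes there 44.2%) and 1 of 8 had H3K27ac (26.5%). The numbers per chromosome are small, and no comparison was made between chromosomes.

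The letters of the promoter windows were compared between the 78 genes and all protein-coding genes. ETS letters were found in 26 windows, or 33.3% (23.1 to 44.9), beside 11.8% of all windows of this length, and YY1 letters in 17, or 21.8% (13.2 to 32.6), beside 3.48%. NRF1 letters were in 13 windows, or 16.7% (9.18 to 26.8), beside 8.95%. NRF1 and the ETS factor GABP, also called NRF2, are known regulators of nuclear genes for mitochondrial proteins. CCAAT was in 29.5% beside 35.8%, and the GC box in 57.7% beside 52.1%. At least 1 of NRF1, ETS and YY1 was in 46 windows, or 59.0% (47.3 to 70.0), beside 21.3% of all genes, 57.1% of the oxidative phosphorylation genes and 45.6% of the cytosolic ribosomal genes. ETS and YY1 letters occurred together in 3 windows. The 5 sets of letters do not contain one another, and the YY1 match within MRPL46 also falls in the window of MRPS11 and was counted for both.

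Members without H3K4me3 also held these letters. Among the 47 members with H3K4me3, ETS letters were in 40.4% (26.4 to 55.7) and YY1 letters in 25.5% (13.9 to 40.3), beside 18.0% and 5.63% of all starts with H3K4me3. Among the 31 members without it, ETS letters were in 22.6% (9.59 to 41.1), YY1 letters in 16.1% (5.45 to 33.7) and NRF1 letters in 25.8% (11.9 to 44.6), beside 7.95%, 2.14% and 6.24% of all starts without it. NRF1 letters were in 10.6% (3.55 to 23.1) of members with H3K4me3, beside 13.3% of all such starts. The split depended on the start used. In windows at the canonical start, with the genes divided as before, ETS letters were in 42.6% of the members with H3K4me3 and 38.7% of those without, and YY1 letters in 21.3% and 25.8%, so that the order for YY1 turned. Beside these, all starts with H3K4me3 had 20.5% for ETS and 7.70% for YY1, and all starts without H3K4me3 had 10.0% and 3.25%. The ratio of observed to expected CpG in the window at the gene start had a median of 0.866 at the 78 genes, beside 0.694 at all genes. It was 0.846 at the 26 members with neither mark and 0.827 at the 31 members without H3K4me3, beside 0.466 at all starts without H3K4me3. Over all starts with H3K4me3 it was 0.835. In windows at the canonical start these gaps were narrower. The median there was 0.886 at the 78 genes, beside 0.773 at all genes. It was 0.870 at the members with neither mark and 0.862 at those without H3K4me3, beside 0.630 at all starts without it. The median GC content at the gene start was 57.5% at the members with neither mark, beside 56% at all starts without H3K4me3. It was 65.3% at all starts with H3K4me3, so the 2 measures of base composition placed the members with neither mark differently.

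**Figure D5:**
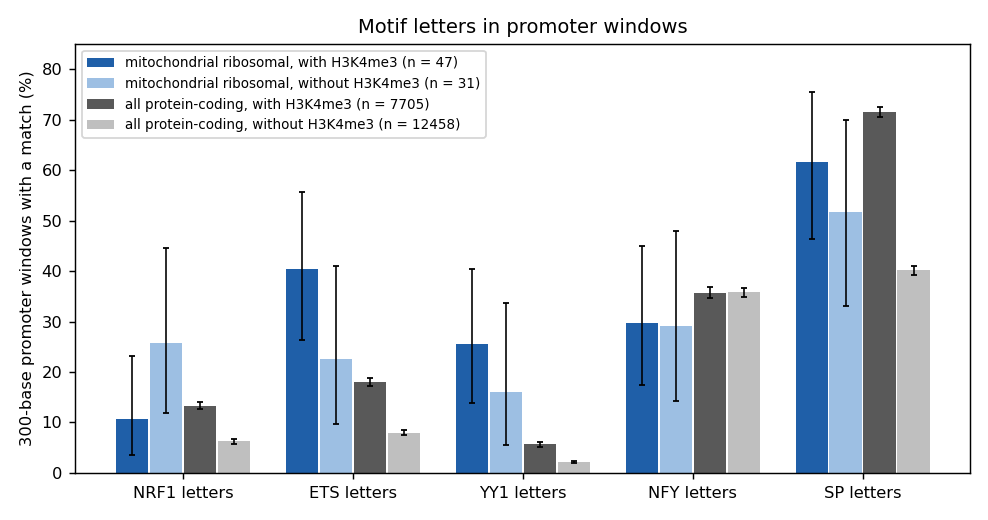
Share of 300-base promoter windows with at least 1 match to each set of letters, in percent, with 95% Clopper-Pearson intervals, for mitochondrial ribosomal genes (blue) and all protein-coding genes (grey) with (dark) and without (light) an H3K4me3 peak within 1 kb of the start. For ETS and YY1 both blue bars lie above the grey bars of the same kind.

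The outer gene start and the start of the canonical transcript were at the same position for 33 genes and within 300 bp for 64. They were more than 1 kb apart for 6 genes, MRPS22 (338.2 kb), MRPL11 (27.9 kb), MRPL37 (16.1 kb), MRPL34 (13.3 kb), MRPL36 (1.53 kb) and MRPS27 (1.48 kb). With the canonical start, 7 genes changed category. MRPL36, MRPS27, MRPS2 and MRPS6 then had both marks, MRPL37 and MRPS22 had H3K27ac alone, and MRPL34 had neither. At MRPL36, the canonical start carried 3.87 for H3K4me3 and 4.04 for H3K27ac, against 1.89 and no peak at the outer start. At the start of any coding transcript, 23 of the 26 unmarked genes had neither mark.

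Over the gene bodies beyond 1 kb from the start, 13 genes had an H3K4me3 peak (16.7%, beside 25% of all genes) and 14 had an H3K27ac peak (17.9%, beside 26.1%). Mitochondrial ribosomal genes are short, with a median length of 11.9 kb against 27.2 kb over all genes, and the part of gene length in these shares was not tested. There were 22 H3K4me3 and 44 H3K27ac peaks in all, and MRPL33 and MRPS22 held 24 of the 44. At MRPL33, whose annotated gene is 216371 bp long, 5 H3K4me3 peaks had −log10 q of 1.31 to 7.85 and 12 H3K27ac peaks had 1.36 to 3.74. The strongest H3K4me3 peak there was chr2:28113703-28114175, which overlaps an H3K27ac peak of 3.25. Both of these peaks lie within 1 kb of the starts of BABAM2 and RBKS and cannot be assigned to MRPL33.

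MRPS22, whose annotated gene spans 354692 bp, had no mark at its outer start, but held 12 H3K27ac peaks with −log10 q of 1.47 to 6.23. Of these, 10 lay within chr3:139017347-139035758, a stretch of 18.4 kb that ends 27.1 kb before the canonical start and had 5897 bp under H3K27ac peaks. The only H3K4me3 peak within this stretch reached 1.55. The most peaks after these were at MRPS28 (4 H3K4me3 and 2 H3K27ac), MRPL11 (1 and 4) and MRPS27 (1 and 4). The H3K4me3 peak and 1 H3K27ac peak of MRPL11 lay at its canonical start (3.89 and 1.66).

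Other genes needed by the mitochondrial ribosome were counted in the same way. Over all protein-coding genes, 38.2% had H3K4me3, 23.6% had H3K27ac, 18.6% had both and 56.8% had neither. The lists are small and their intervals wide. Of the 5 genes for ribosomal proteins under other symbols, AURKAIP1, DAP3, GADD45GIP1 and PTCD3 had both marks and CHCHD1 had neither. Of 21 assembly and RNA modification factors, 14 had H3K4me3 (66.7%, 43.0 to 85.4), 7 had H3K27ac (33.3%) and 7 had neither (33.3%). The highest H3K4me3 among them was at MTG1 (8.99), a GTPase of large-subunit assembly. Of 15 translation factors and regulators, 7 had H3K4me3 (46.7%, 21.3 to 73.4) and 7 had H3K27ac (46.7%). Neither mark was at 6 (40%), among them the initiation factors MTIF2 and MTIF3. TSFM, an elongation factor that starts at chr12:58176544, reached 21.9 for H3K4me3 and 15.9 for H3K27ac, above every one of the 78 genes. Regional shares of marked starts were not counted around TSFM, and the part of its region in these values was not tested. Of 20 genes for mitochondrial aminoacyl-tRNA formation, 14 had H3K4me3 (70%, 45.7 to 88.1), 8 had H3K27ac (40%) and 5 had neither (25%). For H3K4me3, NARS2 reached 15.4 and YARS2 13.3. Of 5 genes for transcription of mitochondrial DNA, TEFM had both marks, TFB2M had H3K4me3 alone (8.78), and POLRMT, TFAM and MTERF1 had neither. The share with H3K4me3 was 40% (5.27 to 85.3).

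As a check of the labelled cell type, all 6 epithelial markers (EPCAM, CDH1, KRT7, KRT8, KRT18 and KRT19) had H3K4me3, and 5 also had H3K27ac. Of 5 lung lineage markers, NKX2-1 had both marks (1.58 and 2.82), and NAPSA, SFTPA1, SFTPB and SFTPC had neither. The markers of other cell types PTPRC, CD3E, COL1A1 and ALB had neither mark.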

How the data were processed

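Per the methods of the authors, H2087 chromatin was sonicated and immunoprecipitated, and libraries were sequenced on an Illumina HiSeq instrument. The submitters' processing notes name bcl2fastq 1.8.4, Bowtie 1.1.1, SAMtools 1.2, Picard 1.118, MACS2 2.1.0, ChIPseeker 1.6.6 and the build hg19. The threshold and the treatment of duplicate reads are not given in the sources used here. The deposited files hold peak positions, names and 1 value per summit, read as a −log10 q of each summit because the smallest values, 1.306 and 1.303, lie next to 1.301, the −log10 of 0.05. It was made by the authors' peak caller.

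Intervals listed once per summit were joined, with the highest −log10 q, which left 18585 H3K4me3 peaks from 20282 entries and 24096 H3K27ac peaks from 25275. Read counts are not in the lists, so depth is unknown and limits what an absent peak shows. Genes were those of GENCODE 44 lifted to GRCh37. Shares have Clopper-Pearson 95% intervals (Python 3.11.15, SciPy 1.17.1), and the counting code was tested on simulated data. With 1 library per mark, no test was run.

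The members and lists were chosen with earlier results of these data known. Genes named were every member with neither mark, the 5 highest by −log10 q and the 5 longest by length under peaks for each mark, those with H3K27ac alone, the 5 with most peaks over the body, and members within 1 kb of one another. Genes named for their function, their partner or their distance to the window were chosen after the values were seen. Promoter windows were printed for the 3 strongest genes per mark and for the unmarked genes first by position. MRPL37 was passed over because its gene start is 16.1 kb from its canonical start. One listed marker of another cell type is not reported here.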

Additional observations from a re-analysis of the deposited data

How the results depend on the processing

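No paired analysis was possible because neither histone mark was replicated. Across 15 results and 99 alternative values, 83 stayed within the spread set by their intervals or within 1.5 times the count. The difference to all genes stayed above 0 in 23 of 24 alternatives. With only peaks of −log10 q of at least 5, H3K4me3 remained at 16 starts, H3K27ac and both marks at 1 (MRPS5), and 62 had neither, with a difference to all genes of 9.82 points for H3K4me3 and −2.25 points for H3K27ac, the only reversal. With peaks above the median −log10 q of their list, both marks were at 14 starts, and 6 genes had H3K27ac over the body. Without another start within 1 kb, fewer genes were counted (48), with H3K4me3 at 29, H3K27ac at 18, both at 15 and neither at 16. The peaks of the marks overlapped by 50% of both at 10 starts. Beyond 3 kb, 6 genes had H3K4me3 and 9 had H3K27ac over the body, and 7 had H3K4me3 with peaks near another start left out.

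Alternatives chosen after seeing the data were the chromosomes with members as background, members near their canonical start, the list without MRPS36, MRPL46 and MRPS11 counted once, and motif windows at the canonical start. The H3K4me3 difference was 19.9 to 21.5 points under the first 4 and the H3K27ac difference 12.3 to 14.1. At the canonical start, ETS letters were in 41.0% of the members' windows beside 14.0%, YY1 letters in 23.1% beside 4.95% and NRF1 letters in 19.2% beside 10.9%.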
